A study of Mus musculus with 26 samples.

Results

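RNA of mouse ears in which MC903 dermatitis had been treated with topical dexamethasone was compared with RNA of vehicle ears, to describe what remained of the dermatitis, which genes lay below the vehicle level, and which were moved away from both vehicle and untreated MC903 ears. The comparison takes every dexamethasone and every vehicle library, 10 of the 26 libraries in the series, and all genes with enough reads (20167 of 57010). All mice were female wild-type Balb/cAnNRj mice, bought at 8 weeks of age and acclimatised for at least 1 week. The 6 vehicle mice received the solvents alone. The 4 dexamethasone mice received 1 nmol of MC903 per day on the right ear for 6 days and 20 nmol of dexamethasone per day, applied 2 h after MC903. The 8 MC903 mice received the same course of MC903 and the drug-vehicle, and served to place each difference. Another 8 mice, given the same course of MC903 and 1 mg of topical RGRN-305, an HSP90 inhibitor, per day, entered the fit only. A 4 mm punch of the ear was taken on day 9, and each mouse gave 1 library. No group received dexamethasone without MC903, so changes beyond both groups belong to the combination, and the steroid and the response to MC903 cannot be told apart in them.

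MC903, or calcipotriol, is a vitamin D analog that acts on the vitamin D receptor of keratinocytes, where it raises the cytokine TSLP and brings on a type 2 inflammation resembling atopic dermatitis. Dexamethasone binds the glucocorticoid receptor, which moves to the nucleus, switches on genes with glucocorticoid response elements and dampens inflammatory transcription. In skin, topical steroids are known to calm inflammation, to deplete Langerhans cells and to thin the dermis.

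Total counts ranged from 13695023 to 35130972 in the vehicle libraries and from 20625369 to 28838836 in the dexamethasone libraries. Levels are CPM, counts divided by library size after scaling by the trimmed mean of M values, and they are compared between mice, not between genes. Differences are log2 fold changes (log2FC) from edgeR's quasi-likelihood fit of all libraries, with Benjamini-Hochberg adjusted p over 20167 genes. The dexamethasone mice were uneven in the genes that stayed partly raised. Of the 4 mice, mouse 3 had the highest level in 89.2% of these genes and mouse 1 the lowest in 71.8%, against 35.0% and 28.6% of all genes tested. The genes were called with mouse 3 included, so its share among them is partly set by the selection. Over all higher DEGs mouse 3 was the highest in 46.1%. Results are therefore given with all 4 mice and, where it matters, without mouse 3. In whole ear tissue, fewer cells of a type and less RNA per cell cannot be told apart.

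Dexamethasone ears were far from vehicle ears. Counting as differentially expressed (DEGs) the genes whose log2FC passed 1.5 in either direction at an adjusted p under 0.05, 965 were higher (4.79% of the genes tested) and 988 were lower (4.9%). Without mouse 3, 896 were higher (4.37%) and 1032 lower (5.03%), of 20514 genes tested. Of the first set, 836 higher and 869 lower genes remained DEGs in the same direction. Over all genes tested, the median log2FC was -0.05. The dexamethasone and vehicle mice did not overlap in CPM in 41.7% of all genes tested.

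The MC903 mice divided these DEGs into classes, by the test of dexamethasone against MC903 ears at an adjusted p below 0.05 without a fold limit. That test called 23.0% of all genes higher and 23.3% lower. Of the 965 higher genes, 305 lay between vehicle and MC903, 338 were not told apart from MC903, and 322 lay above both. Of the 988 lower genes, 37 lay between, 525 were not told apart from MC903, and 426 lay below both. The genes between vehicle and MC903 had a median log2FC of 2.82 with dexamethasone and 4.96 with MC903 alone, both against the same vehicle mice. The median with dexamethasone was 2.75 when the 12 genes with no vehicle count were set at the bound given by 3 counts over the group. In the 322 genes above both, the medians were 2.43 and 1.28, and in the 426 below both they were -2.10 and -0.78.

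**Figure D1:**
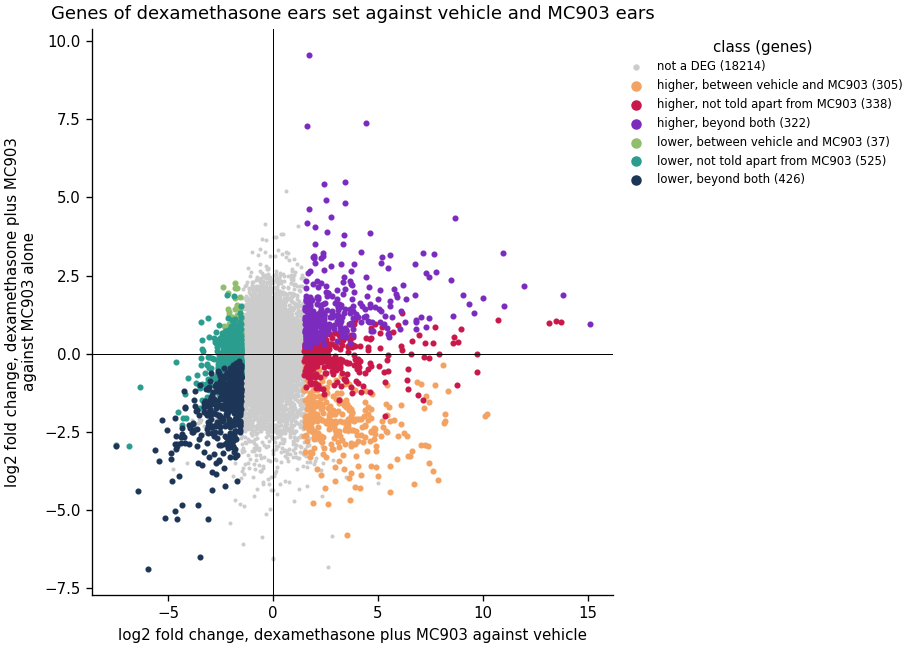
Each point is 1 of the 20167 genes tested, by its log2FC in dexamethasone ears against vehicle ears (x axis) and against MC903 ears (y axis), coloured by class, with the number of genes in the key. Among the genes raised over vehicle, 305 lie under the MC903 level, 322 over it and 338 were not told apart from it. On the left, 426 genes lie below both groups and 37 between them.

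Leaving out mouse 3 ended the largest shares of calls among genes between vehicle and MC903. Of the 305 higher ones, 210 remained DEGs higher than vehicle, and their median log2FC went from 2.82 to 2.07. Of the 37 lower ones 24 remained. Of the genes not told apart from MC903, 307 of 338 higher and 436 of 525 lower ones remained. Of the 322 genes above both groups 319 remained, and of the 426 below both 409 remained. The share in which mouse 3 was the highest was 42.3% among genes not told apart from MC903 and 9.32% among those above both.

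The treatments were visible in every mouse. Cyp24a1 (ENSMUSG00000038567, chromosome 2, 170324628 to 170339065, GRCm39), the vitamin D-degrading enzyme that the vitamin D receptor induces, stood at 0 to 0.687 CPM (median 0) in vehicle ears and at 5309, 3675, 3295 and 4738 CPM in dexamethasone mice 1 to 4. The vehicle mice had next to no transcript, and all 4 treated mice also exceeded the highest MC903 ear (1973 to 2780.0 CPM, median 2123). The log2FC against vehicle was 15.10 ± 0.43 (SE, adjusted p = 8.15e-19), and that against MC903 was 0.95 (adjusted p = 0.00128). Tslp, the keratinocyte cytokine that starts MC903 dermatitis, was at 2.09 to 3.39 CPM (median 2.51) in vehicle ears, at 169, 140.4, 112 and 163 CPM in the dexamethasone mice and at 28.9 to 50.7 CPM (median 38.7) in MC903 ears. No 2 of these groups overlapped, and dexamethasone ears were the highest, at a log2FC of 5.86 ± 0.32 (SE) over vehicle (adjusted p = 3.46e-13) and 1.92 over MC903 (adjusted p = 1.12e-06). S100g, a calcium-binding protein induced by vitamin D in the gut, had 2 counts in all vehicle libraries together and 23.4, 6.61, 19.1 and 21.9 CPM in the dexamethasone mice. Mouse 2 was the lowest of these and within the MC903 range (1.68 to 11.1 CPM, median 5.10), and the pooled ratio of the group to vehicle was 1479 (95% counting interval 409 to 12209). Of the 8 genes of the vitamin D axis tested, 4 rose and 2 fell past the adjusted p limit, without a fold limit, beside 26.4% and 29.4% of all genes tested.

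Fkbp5, a receptor co-chaperone that glucocorticoids induce in most tissues, was at 38.7 to 81.5 CPM (median 57.8) in vehicle ears, 215, 203, 158 and 218 CPM in the dexamethasone mice and 53.5 to 63.0 CPM (median 54.5) in MC903 ears. All 4 treated mice exceeded both other groups, with mouse 3 the lowest, and the log2FC over vehicle was 1.76 ± 0.17 (SE, adjusted p = 1.78e-09). Tsc22d3, which encodes the anti-inflammatory protein GILZ, stood at 86.7 to 119 CPM (median 103) in vehicle, 226, 179, 117 and 235 CPM with dexamethasone and 38.9 to 57.6 CPM (median 47.4) in MC903 ears. Mouse 3 overlapped the vehicle range, the other 3 mice did not, and the log2FC was 0.88 with all mice and 1.06 without mouse 3 (adjusted p = 6.57e-05 and 1.79e-06). The clock gene Per1 and the transcription factor Zbtb16, both steroid-induced in other tissues, did not pass the test against vehicle. Per1 stood at 131, 109.8, 64.8 and 126 CPM against 70.5 to 96.0 CPM (median 80.4) in vehicle, with mouse 3 below that range and the other 3 above it. Zbtb16 stood at 61.2, 35.6, 22.5 and 59.0 CPM against 14.3 to 49.8 CPM (median 20.4), with mice 1 and 4 above that range. Per1 had a log2FC of 0.39 (adjusted p = 0.294) and Zbtb16 of 0.70 (adjusted p = 0.0921), and Zbtb16 passed without mouse 3 (0.92, adjusted p = 0.0347) or without vehicle mouse 3 or 4 (adjusted p = 0.0448 and 0.0243). Against MC903 ears the same genes had log2FC values of 1.96 and 2.49 (adjusted p = 8.07e-06 and 1.98e-06). For both genes the MC903 ears lay below all vehicle ears, with highest values of 35.9 and 10.3 CPM.

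Of 29 glucocorticoid target genes tested, 20 were higher and 3 lower than vehicle (26.4% and 29.4% of all genes). The median log2FC was 0.88, beside -0.05 for all genes and 0.19 for the same list in MC903 ears. Without mouse 3 the counts were 23 and 3, where 23.6% and 26.5% of all genes passed. The glucocorticoid receptor gene Nr3c1 was lower than vehicle by a log2FC of -0.96 (adjusted p = 4.75e-11), and that of MC903 ears was -0.81 against the same vehicle mice. Cebpd, a transcription factor of acute inflammation, rose to 54.8, 60.6, 73.5 and 60.8 CPM from 12.8 to 16.6 CPM (median 14.9), with no overlap and a log2FC of 2.05 (adjusted p = 7.43e-12). Slc7a11, the cystine transporter, rose to 27.3, 26.9, 49.1 and 29.7 CPM from 2.68 to 4.95 CPM (median 3.36), and mouse 3 was the highest. Its log2FC was 3.22 with all mice and 2.97 without mouse 3 (adjusted p = 6.5e-12 and 1.56e-11). Mt1, a metal-binding protein, stood at 119, 142, 258 and 181 CPM with dexamethasone against 56.0 to 70.0 CPM (median 63.1) in vehicle, and at 116 to 184 CPM (median 154) in MC903 ears. Dexamethasone and MC903 ears were both above vehicle and were not told apart from each other (log2FC 0.18, adjusted p = 0.455).

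The letters of a glucocorticoid response element core, GNACANNNTGTNC, searched on both strands in the 250 bases before the transcription start, were present in 4 of the 25 list members with a RefSeq promoter (16.0%) and in 0.378% of 12693 tested genes with one. The 4 stretches are printed so that the element can be read beside the response of each gene, with the match in capitals and 20 bases on each side, 5′ to 3′ on the strand of the gene (RefSeq, GRCm38.p6).
Map3k6 (chr4:133240617-133240669, + strand): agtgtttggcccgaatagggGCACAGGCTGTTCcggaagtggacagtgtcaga
Fam107a (chr14:8309865-8309917, - strand): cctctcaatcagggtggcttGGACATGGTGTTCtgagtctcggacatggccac
Mt1 (chr8:94178975-94179027, + strand): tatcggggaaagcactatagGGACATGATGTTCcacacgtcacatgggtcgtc
Sgk1 (chr10:21993682-21993734, + strand): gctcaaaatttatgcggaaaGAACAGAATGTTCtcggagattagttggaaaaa
The match is a description of letters, not of a bound site. Map3k6, a stress kinase, stood at 44.9 to 56.9 CPM (median 54.9) in vehicle, 196, 156, 131 and 198 CPM with dexamethasone and 63.5 to 89.3 CPM (median 78.1) in MC903 ears. All 4 treated mice were above every other mouse, at a log2FC of 1.70 ± 0.13 (SE, adjusted p = 4.43e-12). Fam107a, an actin-associated protein, was at 7.08, 5.75, 3.74 and 9.28 CPM against 2.80 to 4.17 CPM (median 3.11) in vehicle. Its mouse 3 was within the vehicle range and the other 3 above it, with a log2FC of 0.996 (adjusted p = 0.000453). Sgk1, a kinase of sodium transport, changed least of the 4 genes, by 0.30 on the log2 scale (adjusted p = 0.00362), to 161, 153, 125 and 183 CPM from 115 to 137 CPM (median 124).

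The stressed epidermis, the program of alarm keratins, small proline-rich proteins, defensins and stefins that injured skin switches on, remained high. Of 36 members tested, 35 were higher than vehicle and none lower, beside 26.4% and 29.4% of all genes tested, with a median log2FC of 5.59 (5.50 without mouse 3). In MC903 ears the same median was 7.90, against the same vehicle mice. Klk6 (ENSMUSG00000050063, chromosome 7, 43473869 to 43481516, GRCm39), an epidermal serine protease, stood at 10.03 to 19.4 CPM (median 13.8) in vehicle and at 657, 529.7, 679 and 615 CPM in the dexamethasone mice. The 4 mice were all far above vehicle and inside the MC903 range (423 to 1252 CPM, median 641), and the log2FC was 5.43 ± 0.25 (SE, adjusted p = 4.78e-15). Krt16, the keratin of activated epidermis, went from 15.8 to 33.96 CPM (median 25.95) in vehicle to 2572, 2436, 5541 and 2956 CPM with dexamethasone. Mouse 3 was the only one inside the MC903 range (4018 to 10397 CPM, median 6211), and the log2FC was 7.06 with all mice and 6.71 without mouse 3 (adjusted p = 1.28e-11 and 3.99e-11). Defb4, a beta-defensin, had 2 vehicle counts in all and stood at 8.39, 4.06, 6.61 and 5.67 CPM with dexamethasone, a pooled ratio of 509 (95% counting interval 141 to 4199.5). All 4 mice were above all 8 MC903 ears (0.896 to 1.55 CPM, median 1.25). The difference from MC903 was 2.34 on the log2 scale (adjusted p = 2.54e-08).

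The stefins, cysteine protease inhibitors encoded side by side on chromosome 16, led the genes that were between vehicle and MC903. Cstdc5 (ENSMUSG00000071561, chromosome 16, 36179743 to 36191595, GRCm39) was at 0.0790 to 0.391 CPM (median 0.169) in vehicle, 153, 171, 353 and 236 CPM with dexamethasone and 438 to 1879.5 CPM (median 772) in MC903 ears. The 3 groups did not overlap, mouse 3 was the highest of its group, and the log2FC values were 10.11 against vehicle and -1.98 against MC903 (adjusted p = 3.19e-11 and 0.00114). Stfa1 stood at 6.59, 8.04, 23.9 and 11.01 CPM in mice 1 to 4, where the highest vehicle mouse had 0.0993 CPM. Cstdc6 stood at 9.17, 8.04, 14.2 and 14.7 CPM, where the highest vehicle mouse had 0.0651 CPM. Mice 3 and 4 of Cstdc6 were within the MC903 range, and no mouse of Stfa1 was. Csta3 had no count in any vehicle library and 3.03, 4.97, 14.1 and 3.65 CPM with dexamethasone, at least 354-fold higher than the level of 3 counts over the vehicle group. These genes and the Sprr2, Lce and Krtap13 families are near-identical copies, so that reads counted only where unique may be divided unevenly among them. Gpr15lg, a secreted epithelial peptide that is a ligand of the receptor GPR15, was at 36.9, 78.5, 205 and 68.2 CPM against 0.0395 to 0.651 CPM (median 0.392) in vehicle and 368 to 578 CPM (median 440.1) in MC903 ears. Mouse 3 was again the highest and no groups overlapped.

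Genes of the cell cycle and of epidermal differentiation also stayed above vehicle. Of 24 cell cycle genes, 23 were higher than vehicle (26.4% of all genes), with a median log2FC of 1.20 beside 1.21 in MC903 ears. Mouse 3 was the highest in 21 of them (35.0% of all genes). Without it 23 were again higher (23.6% of all genes), with a median of 1.10. Which cells of the ear these transcripts came from was not tested. Kif11, a motor of the mitotic spindle, was at 31.7, 34.8, 35.3 and 35.6 CPM against 9.64 to 13.6 CPM (median 11.7) in vehicle, with no overlap and a log2FC of 1.56 (adjusted p = 3.33e-11). Of 31 cornified barrier genes, 26 were higher and 3 lower (26.4% and 29.4% of all genes), with a median of 1.20 beside 0.96 in MC903 ears. Krt1, a keratin of the upper epidermal layers, stood at 10588, 8551, 7915 and 8529.5 CPM against 648 to 809 CPM (median 683) in vehicle and 6027 to 8378 CPM (median 7157) in MC903 ears. Flg, the barrier protein filaggrin, had a log2FC of 1.85 (adjusted p = 1.17e-07), whereas Krt77, a keratin of sweat ducts and suprabasal skin, had -3.80 (adjusted p = 0.000292). Both were chosen after their values were seen. Keratinocyte markers moved with these groups: 5 of 8 were higher and 1 lower (26.4% and 29.4% of all genes). Their summed level was 31063 to 36820 CPM in vehicle ears and 63452 to 71157 CPM in dexamethasone ears. Their part in these results was not tested.

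Keratin-associated proteins of hard appendages led the genes not told apart from MC903. Krtap13-20 had no count in any vehicle library and stood at 82.5, 30.6, 86.7 and 88.6 CPM in the dexamethasone mice and 13.0 to 56.0 CPM (median 40.8) in MC903 ears. Mouse 2 was within the MC903 range and the other 3 above it, a difference that did not pass (adjusted p = 0.116), and the level was at least 3958-fold above 3 counts over the vehicle group. Krtap13-23 and Krtap13, of the same family, were likewise absent from vehicle libraries, with bounds of 3432-fold and 2709-fold. Krtap13-21 had 4 vehicle counts in all and 52.9, 25.3, 64.3 and 59.1 CPM with dexamethasone. Krt84 and Krt36, keratins of nail, tongue and hair, and Hoxc13, a transcription factor that controls hair keratins, lay above both groups. Krt36 stood at 4615, 2508, 4517 and 4776 CPM with dexamethasone, at 503 to 1665 CPM (median 1207) in MC903 ears and at 0.0372 to 1.76 CPM (median 0.105) in vehicle. Mouse 2 was again the lowest but above every MC903 ear, and the difference from MC903 was 1.88 on the log2 scale (adjusted p = 0.00557). Hoxc13 was at 88.5, 62.5, 56.6 and 79.1 CPM against 4.45 to 5.73 CPM (median 4.94) in vehicle, a log2FC of 3.84 (adjusted p = 5.54e-16). Most of the hair list did not pass: of 29 members 10 were higher and none lower (26.4% and 29.4% of all genes). The median of the list was -0.82, the same when its 3 genes absent from vehicle were set at their bound. Without dexamethasone mouse 2, 2 members were lower.

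Akr1d1 and Nr5a1 were named by size among the genes not told apart from MC903. Akr1d1, which reduces steroid hormones including glucocorticoids, stood at 0 to 0.165 CPM (median 0.0441) in vehicle, 51.4, 48.2, 54.0 and 71.5 CPM with dexamethasone and 49.1 to 136 CPM (median 75.7) in MC903 ears. All treated mice were far above vehicle, mouse 2 lay just below the MC903 range and the others in it, and the difference from MC903 was -0.58 on the log2 scale (adjusted p = 0.301). Nr5a1, the steroidogenic factor 1 of adrenal and gonad, had 1 count in all vehicle libraries and stood at 8.22, 1.51, 4.92 and 7.95 CPM with dexamethasone. Mouse 2 was below the MC903 range (2.09 to 4.54 CPM, median 3.13) and the others above it, and the pooled ratio to vehicle was 958 (95% counting interval 172 to 37829).

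**Figure D2:**
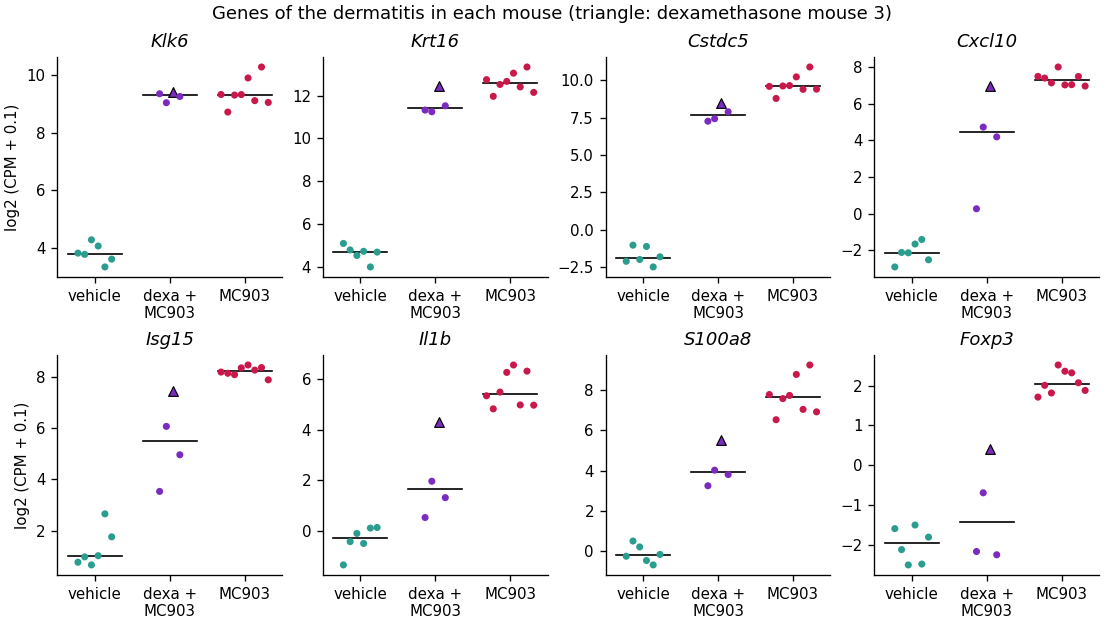
Level of 8 genes as log2 of CPM plus 0.1 (y axis) in each vehicle, dexamethasone and MC903 mouse, with the median of each group as a line and dexamethasone mouse 3 as a triangle. Klk6 of the dexamethasone mice lies inside the MC903 range, Cstdc5 lies under it, and Krt16, Cxcl10, Isg15, Il1b, S100a8 and Foxp3 have mouse 3 at the top of the group.

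Genes induced by type I interferon, the antiviral program, remained raised as a group in mice 2, 3 and 4 but not in mouse 1. Their summed level was 139.8, 650, 1806 and 295 CPM in mice 1 to 4 against 116.8 to 170.2 CPM in vehicle, so that mouse 1 lay within the vehicle range. Of 23 members tested, 21 were higher than vehicle with all mice and 18 without mouse 3 (26.4% and 23.6% of all genes), with medians of 2.94 and 2.00 beside 5.43 in MC903 ears. In all 23 members mouse 1 was the lowest and mouse 3 the highest of the 4 dexamethasone mice, while over all genes tested mouse 1 was the lowest in 28.6% and mouse 3 the highest in 35.0%. Isg15, a ubiquitin-like modifier, was at 1.501 to 6.24 CPM (median 1.92) in vehicle, 11.5, 66.7, 175 and 31.0 CPM in dexamethasone mice 1 to 4 and 234 to 349 CPM (median 297) in MC903 ears. All 4 mice lay above vehicle and below MC903, and the log2FC was 4.69 with all mice and 3.74 without mouse 3 (adjusted p = 1.17e-06 and 8.19e-06). Rsad2, the antiviral protein viperin, stood at 0.368, 18.2, 83.7 and 4.23 CPM against 0.761 to 1.42 CPM (median 1.04) in vehicle. Mouse 1 was under the lowest vehicle ear and mouse 3 just under the lowest MC903 ear (86.2 to 211 CPM, median 141). Its log2FC was 4.69 with all mice and 2.89 without mouse 3 (adjusted p = 0.00017 and 0.0071). Irf7, the factor that sustains interferon production, was at 12.7, 51.2, 139 and 25.6 CPM against 5.53 to 8.34 CPM (median 7.74) in vehicle, and again all 4 mice were above vehicle and below MC903 (149.6 to 300.1 CPM, median 260.2). Mx2, an antiviral GTPase, was at 1.80, 12.3, 35.6 and 7.66 CPM against 0.781 to 1.20 CPM (median 1.07) in vehicle, a log2FC of 3.74 with all mice and 2.77 without mouse 3 (adjusted p = 9.36e-06 and 0.000109).

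The core of the interferon-stimulated response element, GAAANNGAAA, searched on both strands in the same windows, was present in 8 of the 17 list members with a promoter (47.1%) and in 3.31% of 12693 tested genes. The stretches of 4 members and of Cxcl10 are printed so that the element can be read beside the levels of each gene, with matches in capitals (overlapping matches run together) and 20 bases on each side where the window allowed, 5′ to 3′ on the strand of the gene (RefSeq, GRCm38.p6).
Isg15 (chr4:156200855-156200916, - strand): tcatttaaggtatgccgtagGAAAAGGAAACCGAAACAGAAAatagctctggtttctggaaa
Ifit1 (chr19:34640765-34640833, + strand): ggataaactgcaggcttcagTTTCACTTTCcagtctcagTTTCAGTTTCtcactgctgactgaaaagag
Rsad2 (chr12:26456543-26456592, - strand): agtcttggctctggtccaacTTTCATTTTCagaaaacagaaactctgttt
Oas1a (chr5:120907526-120907565, - strand): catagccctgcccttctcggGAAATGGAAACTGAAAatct
Cxcl10 (chr5:92349073-92349122, - strand): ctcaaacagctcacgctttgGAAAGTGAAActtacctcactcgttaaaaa
Isg15 held 3 matches, Ifit1 and Oas1a 2 each, and the others 1, and capitals with TTTC are matches on the other strand. Ifit1, which binds viral RNA, was at 2.496, 37.0, 143 and 9.65 CPM against 0.814 to 1.74 CPM (median 1.19) in vehicle. Oas1a, a sensor of double-stranded RNA, was at 1.31, 18.4, 49.5 and 4.20 CPM against 0.331 to 1.34 CPM (median 0.803). Mouse 1 was within the vehicle range for Oas1a and just above it for Ifit1. Cxcl10, the chemokine of CXCR3-bearing T cells, was at 0.0331 to 0.276 CPM (median 0.129) in vehicle, 1.10, 26.5, 127 and 18.2 CPM with dexamethasone and 125 to 258 CPM (median 156) in MC903 ears. Mouse 1 lay above vehicle, mouse 3 at the lower end of the MC903 range and the others between, with a log2FC of 8.21 ± 1.01 (SE, adjusted p = 3.79e-07). Summed haemoglobin and erythroid markers ran in the same order, at 13.1, 42.5, 106.6 and 27.8 CPM in mice 1 to 4 against 45.3 to 85.0 CPM in vehicle. The part of blood content in these results was not tested.

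The type 2 cytokines Il4 and Il13 did not pass the test against vehicle, and the inflammatory cytokines Il1b and Il6 did. Il4 stood at 0.0254 to 0.253 CPM (median 0.129) in vehicle and 0.0818, 0.0864, 0.513 and 0.331 CPM with dexamethasone, with mice 3 and 4 above vehicle and a log2FC of 0.90 (adjusted p = 0.262). Il13 was at 0.0409, 0.130, 0.615 and 0 CPM against 0.0331 to 0.237 CPM (median 0.103), and mouse 3 alone lay above vehicle. Its log2FC was 0.66 with all mice and -0.97 without mouse 3, neither past the threshold (adjusted p = 0.447 and 0.327). Both lay below every MC903 ear, by log2FC values of -2.37 and -3.34 (adjusted p = 0.00107 and 2.4e-05). These genes had 21 and 18 counts over all vehicle libraries, so that small differences were not detectable at this depth. Il1b, an inflammatory cytokine, was at 0.298 to 1.005 CPM (median 0.745) in vehicle, 1.35, 3.80, 19.8 and 2.39 CPM with dexamethasone and 28.0 to 92.9 CPM (median 42.2) in MC903 ears. All 4 mice exceeded vehicle and lay below MC903, mouse 3 far above the others. The log2FC was 3.17 with all mice and 1.77 without mouse 3, where it no longer passed (adjusted p = 0.00158 and 0.064). Il6 was at 0.164, 1.17, 6.36 and 0.663 CPM against 0.0651 to 0.229 CPM (median 0.115). Mouse 1 was within vehicle and mouse 3 within MC903 (5.77 to 12.2 CPM, median 7.42), and the gene passed both with mouse 3 (3.76, adjusted p = 0.000436) and without it (2.16, adjusted p = 0.0196). Il1a, the alarm cytokine stored in keratinocytes, was even among the mice, at 47.3, 42.7, 42.3 and 43.0 CPM against 10.8 to 13.8 CPM (median 11.03), and the log2FC from MC903 was 0.10 (adjusted p = 0.545). The IL-4 receptor chain Il4ra was higher than vehicle by a log2FC of 1.75 (adjusted p = 7.25e-06). The type 2 transcription factor Gata3, which hair follicles also use, was at 63.8, 53.0, 66.1 and 61.5 CPM against 160.1 to 239 CPM (median 168) in vehicle, below all vehicle and MC903 ears (log2FC -1.57, adjusted p = 1.8e-10). Of 14 type 2 cytokine and receptor genes, 7 were higher and 4 lower (26.4% and 29.4% of all genes), a count of lower genes that went to 2 without dexamethasone mouse 1 or 2 or vehicle mouse 5. Of 21 inflammatory cytokine genes 11 were higher and 2 lower, and 9 and 1 without mouse 3 (23.6% and 26.5% of all genes).

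Many chemokine genes and most neutrophil markers tested were above vehicle. Of 30 chemokine genes, 17 were higher and 4 lower than vehicle (26.4% and 29.4% of all genes), with a median of 2.01 beside 3.13 in MC903 ears, and without mouse 3 the counts were 14 and 5 (23.6% and 26.5% of all genes). Their summed level was 191, 394, 757 and 277.8 CPM in mice 1 to 4 against 228.7 to 277.4 CPM in vehicle. By that sum mouse 1 lay below vehicle and mouse 4 at its upper end. Ccl2, which attracts monocytes, was at 9.37, 22.3, 44.0 and 12.7 CPM against 1.13 to 2.67 CPM (median 1.72) in vehicle, with no overlap and a log2FC of 3.64 (adjusted p = 7.16e-08). Of 7 neutrophil markers tested, 6 were higher and 1 lower both with all mice (26.4% and 29.4% of all genes) and without mouse 3 (23.6% and 26.5%). Cxcr2, the chemokine receptor of neutrophils, stood at 14.1, 18.2, 31.6 and 15.3 CPM against 3.36 to 6.74 CPM (median 4.87) in vehicle and 49.0 to 80.4 CPM (median 57.4) in MC903 ears. The 3 groups did not overlap, and the log2FC values were 1.95 against vehicle and -1.63 against MC903 (adjusted p = 4.19e-06 and 5.18e-05). S100a8, which stressed keratinocytes also express, was at 9.37, 16.1, 45.3 and 13.8 CPM against 0.513 to 1.30 CPM (median 0.755) in vehicle and 92.7 to 615 CPM (median 204) in MC903 ears. Its partner S100a9 was at 5.93, 14.5, 60.0 and 11.1 CPM against 0.632 to 2.28 CPM (median 1.26). All mice lay between the other groups for both genes. The summed neutrophil markers were 35.5, 61.2, 164.6 and 50.2 CPM in mice 1 to 4 against 13.6 to 21.2 CPM in vehicle and 298 to 1554 CPM in MC903 ears, and 4 of the 11 listed, Ly6g among them, had too few reads to test. Has3, a hyaluronan synthase of the epidermis chosen after its values were seen, showed the same spread, at 1.68, 5.88, 25.1 and 3.28 CPM against 0.636 to 1.82 CPM (median 0.926) in vehicle, with a log2FC of 3.15 (adjusted p = 0.000192). The endothelial adhesion molecule Sele, named likewise, was higher than vehicle by a log2FC of 1.60 (adjusted p = 9.42e-05). Of the 21 genes of endothelium and leukocyte entry that include it, 5 were higher and 9 lower (26.4% and 29.4% of all genes), with a median of -0.26, and 3 and 7 without mouse 3 (23.6% and 26.5%). The share of higher members with all mice was thus near that of all genes. Of 5 endothelial cell markers 4 were lower and none higher (29.4% and 26.4% of all genes), and 2 and none without mouse 3 (26.5% and 23.6%).

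Calls of T cell genes rested on mouse 3, and those of cytotoxic genes in part. Of 14 T cell markers, 4 were higher and 2 lower with all mice (26.4% and 29.4% of all genes), and none were higher and 3 lower without mouse 3 (23.6% and 26.5% of all genes). With all mice the share of higher members was thus near that of all genes. The lower ones were 1 without mouse 1 or mouse 4. Their median log2FC went from 0.51 to -0.55 without mouse 3, beside 3.33 in MC903 ears. The summed level of the 14 markers was 10.8, 16.6, 31.1 and 13.6 CPM in dexamethasone mice 1 to 4 and 14.7 to 21.6 CPM in vehicle, so that mouse 3 alone lay above vehicle. Foxp3, the factor of regulatory T cells, was at 0.123, 0.519, 1.23 and 0.110 CPM against 0.0763 to 0.253 CPM (median 0.158) in vehicle. Mice 2 and 3 were above vehicle and mice 1 and 4 within its range, and the log2FC of 1.54 (adjusted p = 0.0112) became 0.61 without mouse 3 (adjusted p = 0.32). Cd2 and the costimulator Icos also lost their calls, with log2FC values that went from 1.44 to 0.86 and from 1.35 to 0.48 without mouse 3 (adjusted p = 0.105 and 0.209). Gzmb, a protease of cytotoxic granules, was at 0.123, 1.34, 4.97 and 0.516 CPM against 0 to 0.158 CPM (median 0.121), with mouse 1 within vehicle, and stayed past the threshold at 2.59 (adjusted p = 0.0179) without mouse 3. Of 9 natural killer and cytotoxic markers, 4 were higher with mouse 3 and 2 without it (26.4% and 23.6% of all genes).

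Of the basophil and mast cell genes, Mcpt8 was highest in mouse 3 and Tpsab1 lowest in it, and the list as a whole overlapped vehicle. Mcpt8, a protease of basophils, was at 0.0409, 0.303, 4.97 and 0.479 CPM against 0 to 0.149 CPM (median 0.0127) in vehicle, with mouse 1 within vehicle and mouse 3 far above the others, and a log2FC of 5.02 (adjusted p = 0.000997). Without mouse 3 it was 2.77 and did not pass (adjusted p = 0.0591). Tpsab1, a mast cell tryptase, stood at 78.3, 75.7, 55.6 and 84.5 CPM against 17.8 to 30.4 CPM (median 25.1) in vehicle and 18.3 to 29.4 CPM (median 21.5) in MC903 ears. Here mouse 3 was the lowest, all 4 mice exceeded both groups, and the log2FC was 1.58 (adjusted p = 6.75e-10). Of 10 mast cell and basophil markers, 5 were higher and 1 lower (26.4% and 29.4% of all genes), and 3 and none without mouse 3 (23.6% and 26.5% of all genes). Without mouse 3 the share of higher members was thus near that of all genes. The median log2FC with all mice was 0.23. Their summed level was 242, 293, 257 and 291 CPM in mice 1 to 4 against 164 to 268 CPM in vehicle, so that mice 1 and 3 lay within the vehicle range.

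Among genes above both vehicle and MC903 ears, those named by size included transcripts nearly absent from vehicle skin. En1 (ENSMUSG00000058665, chromosome 1, 120530108 to 120535721, GRCm39), the homeobox factor engrailed 1 that patterns limb and skin, stood at 0 to 0.0362 CPM (median 0) in vehicle, 10.2, 6.83, 5.02 and 6.52 CPM with dexamethasone and 0.157 to 0.618 CPM (median 0.340) in MC903 ears. Every dexamethasone mouse exceeded every other mouse, and the pooled ratio to the 2 vehicle counts was 596 (95% counting interval 165 to 4921). Its log2FC against MC903 was 4.33 ± 0.30 (SE, adjusted p = 1.02e-11). Slc30a10, a manganese exporter, had no vehicle count and stood at 15.3, 9.64, 8.10 and 9.32 CPM against 0.309 to 1.89 CPM (median 1.30) in MC903 ears, at least 581-fold above 3 counts over the vehicle group. Again no groups overlapped. Ecel1, a membrane metalloprotease best known in neurons, was at 15.6, 10.2, 11.9 and 16.5 CPM against 0 to 0.158 CPM (median 0.0293) in vehicle and 0.696 to 2.12 CPM (median 1.47) in MC903 ears, with log2FC values of 7.68 and 3.18. Mmp13, the collagenase 3, reached 219.6, 155, 124 and 221 CPM from 0.130 to 0.484 CPM (median 0.198) in vehicle, and MC903 ears stood at 35.4 to 87.3 CPM (median 60.8).

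Other genes of this class had a low level in vehicle skin and were not raised past the test, or were lower, in MC903 ears. Diras1, a small GTPase of the Ras family, was at 0.223 to 0.716 CPM (median 0.587) in vehicle, 16.1, 9.21, 9.43 and 15.6 CPM with dexamethasone and 0.0773 to 1.71 CPM (median 0.804) in MC903 ears. The dexamethasone mice lay apart from both, with log2FC values of 4.61 and 3.87 (adjusted p = 2.32e-10 and 1.82e-09), where MC903 alone gave 0.75 (adjusted p = 0.0853). Sv2b, a synaptic vesicle glycoprotein, was at 8.55, 6.09, 3.08 and 5.30 CPM against 0.0651 to 0.744 CPM (median 0.537) in vehicle and 0.0881 to 0.320 CPM (median 0.196) in MC903 ears. Cxcl13, the chemokine that guides B cells, was at 4.83, 12.8, 2.56 and 7.55 CPM against 0.0744 to 1.17 CPM (median 0.708) in vehicle and 0 to 0.309 CPM (median 0.158) in MC903 ears. For both genes the dexamethasone mice were the highest and did not overlap vehicle, although mouse 3 was the lowest of them. MC903 alone went the other way, with log2FC values of -1.35 and -2.06 (adjusted p = 0.00676 and 0.00243) against the same vehicle mice, where dexamethasone gave 3.46 and 3.42 (adjusted p = 2.84e-08 and 2.43e-06). Lyve1, a hyaluronan receptor of lymphatic vessels and some macrophages, was higher by log2FC values of 0.69 than vehicle and 0.92 than MC903 (adjusted p = 3.44e-05 and 4.22e-07), a change under the fold limit.

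**Figure D3:**
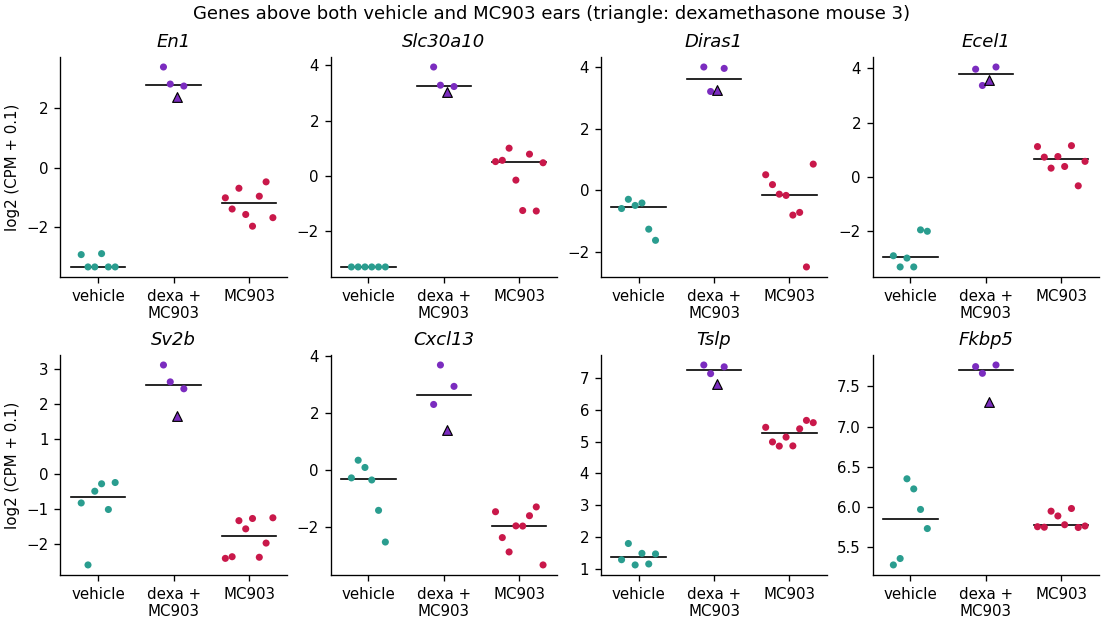
Level of 8 genes as log2 of CPM plus 0.1 (y axis) in each vehicle, dexamethasone and MC903 mouse, with group medians as lines and dexamethasone mouse 3 as a triangle. In all 8 panels every dexamethasone mouse lies above every vehicle and every MC903 mouse. Mouse 3 is the lowest of its group in 6 of the panels.

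Below both groups, the genes named by size had all 4 mice below every vehicle ear, which the rule for naming required. Fcgbp (ENSMUSG00000047730, chromosome 7, 27770661 to 27820287, GRCm39), an Fc-binding secreted protein of epithelia, stood at 161 to 206 CPM (median 191) in vehicle, 4.50, 4.97, 6.20 and 5.93 CPM with dexamethasone and 168 to 282 CPM (median 199.7) in MC903 ears. MC903 alone gave a log2FC of 0.12 (adjusted p = 0.395), and dexamethasone ears lay far below every other mouse, by a log2FC of -5.13 ± 0.20 (SE, adjusted p = 1.51e-17). Grep1, a glycine-rich extracellular protein, and H2-M2, a nonclassical class I histocompatibility gene, also lay below every vehicle and MC903 ear. Grep1 was at 0.532, 1.25, 1.13 and 0.626 CPM against 12.4 to 19.4 CPM (median 18.1) in vehicle (log2FC -4.31, adjusted p = 8.43e-10). H2-M2 was at 0.532, 1.94, 1.49 and 0.663 CPM against 10.05 to 19.2 CPM (median 12.2) (log2FC -3.58, adjusted p = 2.45e-10). Rnase2b, a ribonuclease of the eosinophil-associated family, was at 0.982, 1.51, 3.18 and 1.51 CPM against 10.1 to 22.6 CPM (median 19.5) in vehicle and 13.0 to 29.2 CPM (median 19.9) in MC903 ears. Mouse 3 was the highest of the 4, and without it the log2FC went from -3.39 to -3.78.

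Other genes were lower in MC903 ears and lower still with dexamethasone, among them genes of lipid handling. Acoxl, an acyl-CoA oxidase-like enzyme, was at 31.6 to 42.5 CPM (median 36.2) in vehicle, 7.80 to 14.5 CPM (median 11.4) in MC903 ears and 0.450, 2.20, 1.85 and 0.700 CPM with dexamethasone. Pdzk1, a scaffold of membrane transporters, stood at 12.3 to 17.1 CPM (median 14.9), 1.99 to 5.99 CPM (median 3.68) and 0.123, 0.432, 0.359 and 0.442 CPM in the same order. The 3 groups did not overlap for either gene, with log2FC values against vehicle of -4.87 and -5.42 (adjusted p = 3.62e-14 and 3.74e-13). Of 20 sebaceous gland genes, 15 were lower and 2 higher than vehicle (29.4% and 26.4% of all genes), with a median of -1.20 beside -0.64 in MC903 ears. Scd1, the desaturase of sebum and fat, was at 540.5, 783, 767 and 728 CPM against 4744 to 5756 CPM (median 5236) in vehicle and 1622 to 2125 CPM (median 1851) in MC903 ears, a log2FC of -2.89 (adjusted p = 2.65e-17). Fa2h, the fatty acid hydroxylase of sebum, and Far2, which makes wax alcohols, were lower by log2FC values of -3.21 and -2.49, and mouse 1 was the lowest for both. Serpina3b, a serine protease inhibitor, was at 0.614, 0.951, 0.0513 and 0.589 CPM against 79.6 to 142 CPM (median 91.8) in vehicle. Its log2FC was -7.48 (adjusted p = 3.97e-12), and that of MC903 ears was -4.52 against the same vehicle mice.

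The dermal matrix was below vehicle more than in MC903 ears. Of 31 collagen and matrix genes, 23 were lower and 3 higher than vehicle (29.4% and 26.4% of all genes), with a median log2FC of -1.56 beside -0.78 in MC903 ears, and without mouse 3 the counts were 24 and 2 (26.5% and 23.6% of all genes). Col1a1, a chain of the main dermal collagen, stood at 600.0 to 992 CPM (median 807) in vehicle, 82.3, 99.97, 126 and 88.6 CPM with dexamethasone and 260.6 to 435 CPM (median 311) in MC903 ears. The groups were ordered without overlap, with a log2FC of -2.99 ± 0.21 (SE) against vehicle (adjusted p = 4.95e-12) and -1.77 against MC903 (adjusted p = 3.91e-08). Postn, periostin of remodelling matrix, was at 46.2, 74.4, 66.0 and 73.3 CPM against 448 to 713 CPM (median 562) in vehicle and 346 to 549.8 CPM (median 492) in MC903 ears, a log2FC of -3.14 (adjusted p = 6.8e-16). Col1a2 and Lum, which encode the partner chain and a collagen-binding proteoglycan, were lower by log2FC values of -2.94 and -2.03. Cartilage genes of the ear moved the same way, with all 5 chondrocyte markers tested lower (29.4% of all genes). The log2FC was -2.40 for Comp and -2.10 for Col2a1. Fibroblast markers, 5 of whose 6 genes are matrix genes of that list, summed to 3329 to 4973 CPM in vehicle ears, 1028 to 1228 CPM in dexamethasone ears and 1501 to 2354 CPM in MC903 ears. Pdgfra, the fibroblast receptor that encodes no matrix protein, was the 1 marker that did not pass (log2FC -0.31, adjusted p = 0.0569), and the part of fibroblast number was not tested.

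Most Langerhans and dendritic cell genes were below vehicle. Of 14 markers, 11 were lower with all mice, 12 without mouse 3 (29.4% and 26.5% of all genes), and none higher, with medians of -1.10 and -1.45 beside 0.95 in MC903 ears. Cd207, langerin of Langerhans cells, was at 18.7 to 26.8 CPM (median 22.4) in vehicle, 3.40, 5.71, 4.46 and 2.21 CPM with dexamethasone and 13.2 to 23.2 CPM (median 19.8) in MC903 ears. Every dexamethasone mouse lay below all others, with a log2FC of -2.53 ± 0.20 (SE, adjusted p = 3.13e-11). H2-Ab1, a chain of the class II molecule that presents antigen, stood at 23.9, 47.6, 59.6 and 29.5 CPM against 130.0 to 174 CPM (median 145) in vehicle and 274 to 371 CPM (median 319.5) in MC903 ears. H2-Aa and the invariant chain Cd74 followed it, and the 3 log2FC values against vehicle were -1.88, -1.91 and -1.96, with mouse 1 the lowest and mouse 3 the highest for each. All values lay below every vehicle ear. The 14 markers summed to 857 to 1134 CPM in vehicle, 273 to 439.7 CPM with dexamethasone and 1570.1 to 1940.0 CPM in MC903 ears. Ccl21a, the lymphatic chemokine that guides dendritic cells to lymph nodes, was at 3.60, 7.91, 12.8 and 4.53 CPM against 50.6 to 81.2 CPM (median 62.8) in vehicle, a log2FC of -3.15 (adjusted p = 1.28e-10) and -3.57 without mouse 3. Near-identical copies of this gene exist in the genome, so its level is uncertain.

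**Figure D4:**
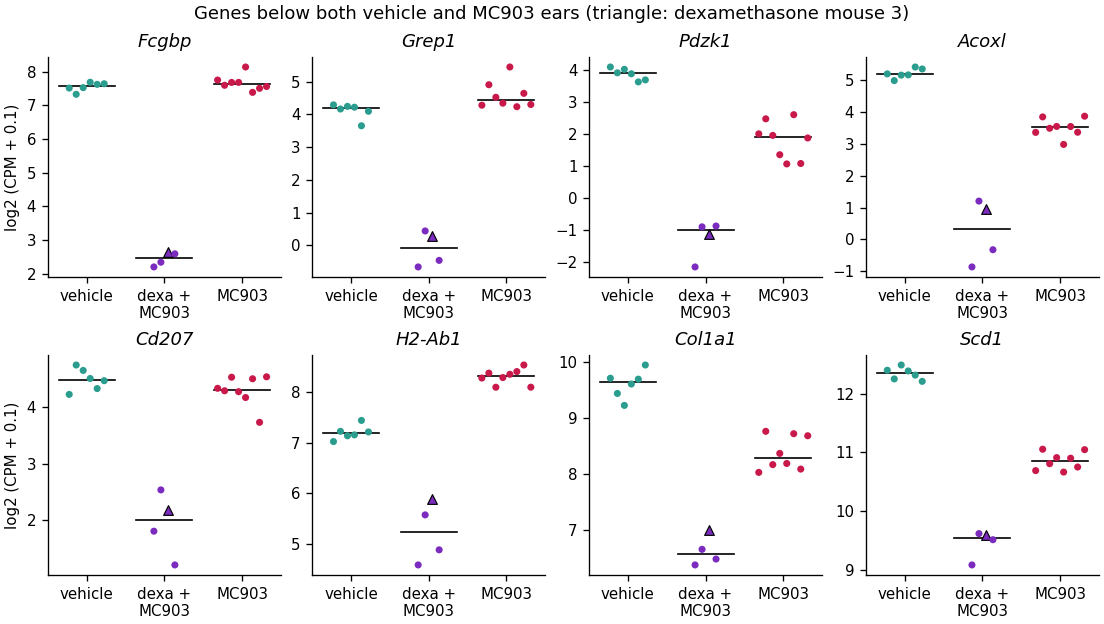
Level of 8 genes as log2 of CPM plus 0.1 (y axis) in each vehicle, dexamethasone and MC903 mouse, with group medians as lines and dexamethasone mouse 3 as a triangle. In all 8 panels the 4 dexamethasone mice lie below every vehicle and every MC903 mouse. Fcgbp, Grep1 and Cd207 of MC903 ears lie near vehicle, H2-Ab1 lies above it, and Pdzk1, Acoxl, Col1a1 and Scd1 lie between.

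Only 5 DEGs were raised by MC903 alone, by a rule that 7.46% of all genes tested met, and lowered with dexamethasone against the same vehicle mice. None met the rule for naming, which asked for a minimum level and no overlap, and they are named after their values were seen. Cyp2g1, a cytochrome P450 best known in the nose, was at 0.237 to 1.92 CPM (median 1.06) in vehicle, 0, 0.259, 0.205 and 0.0368 CPM with dexamethasone and 2.67 to 7.81 CPM (median 4.01) in MC903 ears. Mouse 2 overlapped the vehicle range, and the log2FC was -3.10 (adjusted p = 0.00195). Il5ra, the interleukin-5 receptor chain of eosinophils, had 9 vehicle counts, 2 vehicle libraries having none, and none in any dexamethasone library, at least 1.57-fold lower when set at 3 counts over the 4 mice. Its call was marginal (adjusted p = 0.0478) and was lost when any single dexamethasone mouse was left out (0.0781 to 0.0885) and without vehicle mouse 3, 4, 5 or 6 (0.0519 to 0.0816). Chst13, a sulfotransferase, was as weak (adjusted p = 0.0438) and lost its call without dexamethasone mouse 2 or 4 (0.133 and 0.15) or vehicle mouse 1, 2 or 3 (0.0556 to 0.0905). Fcrla, an Fc receptor-like protein of B cells, and the predicted gene Gm5547 had log2FC values of -2.29 and -1.72 (adjusted p = 0.00792 and 0.00155).

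Of the lower genes, 525 were not told apart from MC903 ears. Vipr1, a receptor of vasoactive intestinal peptide, was at 21.3 to 32.6 CPM (median 28.4) in vehicle, 2.496, 4.24, 2.51 and 4.35 CPM with dexamethasone and 2.47 to 4.72 CPM (median 3.76) in MC903 ears. Dexamethasone and MC903 ears overlapped fully, and the log2FC values were -3.04 against vehicle and -0.11 against MC903 (adjusted p = 8.01e-11 and 0.731). Wnt10b, a Wnt ligand of hair follicle and dermis, and Kcnj16, a potassium channel, were lower than vehicle by log2FC values of -3.03 and -3.13. Wnt10b stood at 1.55, 0.994, 1.03 and 1.36 CPM against 9.03 to 11.9 CPM (median 9.72) in vehicle, and Kcnj16 at 0.777, 0.562, 0.205 and 0.847 CPM against 4.17 to 6.25 CPM (median 5.51), with no overlap. The muscle genes Myl3 and Pvalb had -3.12 and -3.12 (adjusted p = 7.42e-06 and 0.0187), and the call of Pvalb was lost without dexamethasone mouse 1 or without vehicle mouse 4 (adjusted p = 0.0514 and 0.0548). Several clock genes were lower than vehicle too. Dbp stood at 30.4, 25.3, 14.97 and 24.1 CPM against 104 to 149 CPM (median 118) in vehicle and 17.6 to 43.1 CPM (median 27.8) in MC903 ears, and Bhlhe41, which lay slightly below MC903 too (-0.45, adjusted p = 0.014), had a log2FC of -2.31 from vehicle (adjusted p = 1.69e-12). Of 18 clock genes, 11 were lower and 2 higher than vehicle (29.4% and 26.4% of all genes). Against MC903 ears 3 were lower and 8 higher (23.3% and 23.0%). The hour at which each biopsy was taken is not given in the sources used here.

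Most sarcomere genes were below vehicle and above MC903 ears. Of 22 tested, 15 were lower and none higher than vehicle (29.4% and 26.4% of all genes), and 18 were higher than MC903 ears (23.0% of all genes). Their log2FC from vehicle had a median of -0.91 beside -2.46 in MC903 ears, and 11 were lower without mouse 3 (26.5% of all genes). Ckm, the muscle creatine kinase, stood at 135 to 264 CPM (median 189.6) in vehicle, 122, 87.8, 71.9 and 81.2 CPM with dexamethasone and 15.8 to 36.5 CPM (median 23.4) in MC903 ears. The dexamethasone mice were all above MC903 and all below vehicle, with log2FC values of -1.11 against vehicle and 1.92 against MC903 (adjusted p = 0.00714 and 1.68e-05). Adipoq, the adipocyte hormone adiponectin, was at 12.8, 11.8, 6.56 and 13.1 CPM against 15.8 to 28.6 CPM (median 20.9) in vehicle and 1.62 to 5.23 CPM (median 3.32) in MC903 ears. The dexamethasone mice were above all MC903 ears and below all vehicle ears, with a log2FC against vehicle of -0.96 (adjusted p = 0.00204). It was the only one of 5 adipocyte markers to pass against vehicle, and their median log2FC was -0.22. Their summed level was 109, 91.1, 56.6 and 94.7 CPM in mice 1 to 4, so that mouse 3 alone lay below the vehicle range of 84.2 to 146 CPM, and MC903 ears had 11.9 to 24.8 CPM. Of 23 adipocyte and lipogenesis genes, 12 were lower and 3 higher than vehicle (29.4% and 26.4% of all genes), and 9 and 4 without mouse 3 (26.5% and 23.6%). Against MC903 ears 15 of these genes were higher and 2 lower (23.0% and 23.3% of all genes), with a median log2FC of 0.58. Their summed level of 2422 to 2828 CPM still lay below both vehicle (7593 to 8635 CPM) and MC903 ears (2955 to 3655 CPM). That sum includes Scd1, described above, which lay below every vehicle and every MC903 ear, so it does not give the direction of most members. Among the 37 lower DEGs between the groups, the 5 named by size were Lrtm1, a leucine-rich repeat membrane protein, Nnat, a small protein of neurons and hair follicles, the retinol receptor Stra6, the matrix protein Hmcn2 and the glutamine transporter Slc38a3. Their log2FC values against vehicle were -2.32, -2.12, -2.09, -2.02 and -1.97, and against MC903 0.88, 1.93, 0.95, 0.76 and 1.16. Summed skeletal muscle markers were 1020 to 2105 CPM in vehicle, 598 to 844 CPM with dexamethasone and 144 to 365 CPM in MC903 ears. Their part in these results was not tested.

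**Figure D5:**
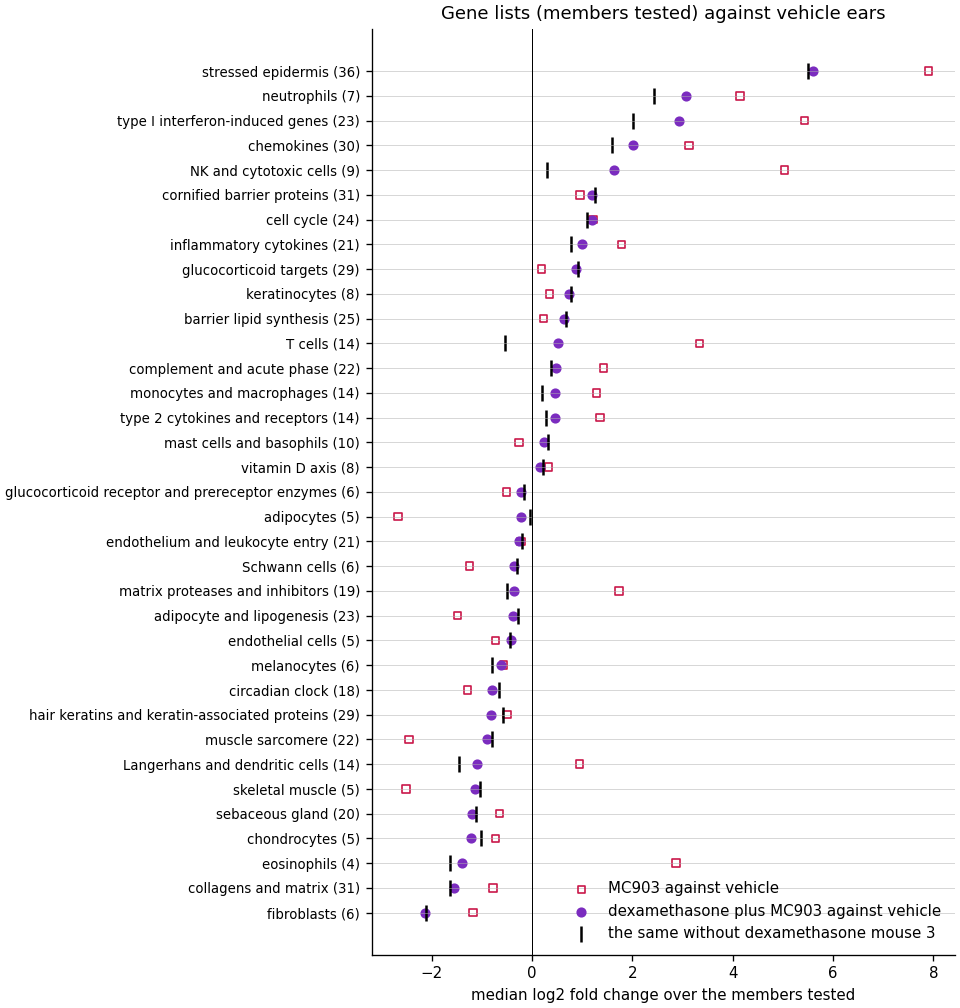
Median log2FC over the members tested (x axis) of each gene list with at least 4 of them (y axis, number tested in brackets), for dexamethasone ears against vehicle (filled circles), the same without dexamethasone mouse 3 (black bars) and MC903 ears against vehicle (open squares). Stressed epidermis, neutrophil, interferon and chemokine lists lie above 2 with all mice, T cell and cytotoxic lists move most when mouse 3 is left out, and Langerhans, fibroblast and matrix lists lie below 0.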

How the data were processed

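RNA of ear punches was sequenced in 26 libraries, each from 1 mouse. The authors deposited 1 table of raw read counts per gene; per their methods, strand-specific reads were aligned to GRCm39 with Subread 2.10.3 and only uniquely aligned, unambiguous reads were counted. Reads from near-identical genes are therefore lost or divided. Total counts were 13695023 to 35130972 (vehicle), 20625369 to 28838836 (dexamethasone) and 14311046 to 28036747 (MC903), which sets the counting error of low genes. Counting intervals and floors cover counting error only.

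Counts were fitted in edgeR 4.0.16 (R 4.3.3) as a robust quasi-likelihood model of all 4 groups after filterByExpr and scaling by the trimmed mean of M values, with Benjamini-Hochberg adjustment over 20167 of 57010 genes. DEGs passed an adjusted p of 0.05 and 1.5 on the log2 scale, and list members only the former. Symbols were found for 56310 identifiers, and the other 700 held 0.0631% of counts. Fold changes against a vehicle group with no count were set against a floor of 3 counts over the group.

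Genes named by size were protein-coding DEGs without overlap whose mean log2 CPM reached 2 in either group, the 5 or 6 largest per class, plus members of each list with the smallest p and genes of known role. The 20 pathway and 18 cell type lists hold 572 genes, of which 542 were tested. Members and lists were chosen with earlier results of these data known. Alternatives were DESeq2 1.42.0, its size factors, no filter, a mean normalized count above 25, a test against the fold limit, a fold limit of 1, a fit of vehicle and dexamethasone libraries alone, the mouse number as a block, and each mouse left out. Values of 1 gene are not reported here. The procedure was tested on simulated data with 200 changed genes.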

Additional observations from a re-analysis of the deposited data

Results flagged for a closer look

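For the 125 genes named, the highest and the lowest mouse of the dexamethasone and vehicle groups were compared with the nearest of the other mice on the scale of log2 CPM. In 20 of 244 such pairs of gene and group 1 mouse stood apart by Dixon's 95% criterion, which chance alone gives in about 1 of 20 groups.

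Among the dexamethasone mice, mouse 2 stood apart for 5 genes. It was low for the keratin-associated genes Krtap13-20 (30.6 CPM, the others 82.5 to 88.6) and Krtap13-23 (29.6 CPM, the others 68.2 to 76.1). It was low for the hard keratin Krt36 (2508.5 CPM, the others 4517 to 4776) and for the calcium-binding S100g (6.61 CPM, the others 19.1 to 23.4). It was high for the fatty acid elongase Elovl6 (318 CPM, the others 221 to 230). Mouse 3 stood apart for 2 genes, high for the cystine transporter Slc7a11 (49.1 CPM, the others 26.9 to 29.7) and low for the adipocyte hormone Adipoq (6.56 CPM, the others 11.8 to 13.1). Mouse 1 was high for the retinol receptor Stra6 (2.91 CPM, the others 1.30 to 1.44), the glutamine transporter Slc38a3 (3.76 CPM, the others 2.51 to 2.58) and the cytokine Il1a (47.3 CPM, the others 42.3 to 43.0).

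Among the vehicle mice, mouse 4 alone had Cyp24a1 counts (0.687 CPM) and alone had no Gzmb (0 CPM, the others 0.102 to 0.158). Mouse 6 was high for the basophil protease Mcpt8 (0.149 CPM, the others at most 0.0331) and alone had the single Nr5a1 count (0.0372 CPM). Mouse 1 was low for Irf7 (5.53 CPM, the others 7.49 to 8.34) and for the muscle gene Myl3 (1.82 CPM, the others 4.07 to 5.67). Mouse 2 was low for Sv2b (0.0651 CPM, the others 0.395 to 0.744). Mouse 5 was low for Grep1 (12.4 CPM, the others 16.9 to 19.4) and Rnase2b (10.1 CPM, the others 18.2 to 22.6) and high for haptoglobin, Hp (29.1 CPM, the others 15.9 to 19.5).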

How the results depend on the processing

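The 965 higher and 988 lower DEGs became 1240 and 1198 with DESeq2, 982 and 957 with its size factors in edgeR, 1354 and 1324 without a filter, and 825 and 885 in a fit of the vehicle and dexamethasone libraries alone. With a mean normalized count above 25 they were 669 and 562. A test against the fold limit left 485 and 273, and a fold limit of 1 gave 1713 and 2249. Of the genes not told apart from MC903, the 338 higher ones were 557 with DESeq2, 667 without a filter, 201 at the count minimum and 698 at the lower limit, and the 525 lower ones were 834 without a filter, 235 at the count minimum and 1212 at the lower limit. The lower limit also gave 581 higher and 762 lower genes beyond both groups and 275 lower genes between them, from 37. In the test against the fold limit, the higher classes held 128 between, 155 not told apart and 202 beyond both, and the lower ones 1, 82 and 190.

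Leaving out 1 mouse gave 896 to 1051 higher and 958 to 1061 lower DEGs. By class, the higher genes ranged over 227 to 307 between, 322 to 462 not told apart and 282 to 347 beyond both, and the lower ones over 25 to 52, 484 to 623 and 374 to 483. Genes with an adjusted p below 0.05 numbered 4822 to 5200 higher and 5427 to 6120 lower. Il13 turned from 0.66 to -0.97 on the log2 scale without dexamethasone mouse 3, neither past the threshold, and ranged up to 1.12 over the mice left out. Calls that ended without 1 mouse stand beside the genes.

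Deviations of same-numbered dexamethasone and vehicle mice correlated at -0.05, 0.29, -0.06 and 0.08. Mice of different numbers correlated at -0.20 to 0.17. Whether the numbers pair the mice cannot be decided from so few values. With the mouse number as a block, 1006 genes were higher and 974 lower DEGs. Il5ra and Chst13 lost their calls with that block (adjusted p = 0.0771 and 0.0879), with DESeq2 (0.0746 and 0.0796) and without a filter (0.0575 and 0.0707), and Per1 passed in the fit of vehicle and dexamethasone libraries alone (edgeR, adjusted p = 0.038). Low-count genes such as Il4, Il13 and Il5ra had wide errors at this depth. The 4 dexamethasone mice limit every estimate, and no group shows dexamethasone on ears without MC903.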

Other observations

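Enzymes of the epidermal lipid barrier divided into both directions. Of 25 genes tested, 17 were higher and 7 lower than vehicle in edgeR's test (26.4% and 29.4% of all genes tested), with a median log2FC of 0.63 beside 0.22 in MC903 ears. Alox12b, a lipoxygenase needed for the lipid envelope of corneocytes, stood at 349, 300.3, 249.6 and 341 CPM in the dexamethasone mice against 105 to 136 CPM (median 118) in vehicle and 176 to 239 CPM (median 198) in MC903 ears. The 3 groups did not overlap, and the log2FC over vehicle was 1.37 (edgeR, adjusted p = 2.68e-12). Ugcg, which makes glucosylceramide, was higher by a log2FC of 1.68 (adjusted p = 1.8e-12). Elovl6, which lengthens fatty acids and also serves sebum and fat, was at 226, 318, 221 and 229.8 CPM against 853 to 1021 CPM (median 969) in vehicle, lower by a log2FC of -1.93 (adjusted p = 1.06e-10).

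Of 22 complement and acute phase genes, 9 were higher and 3 lower (26.4% and 29.4% of all genes). Serpina3n, a secreted inhibitor of serine proteases, was at 67.8, 98.7, 122 and 101 CPM against 16.8 to 20.8 CPM (median 20.3) in vehicle and 47.9 to 72.8 CPM (median 55.1) in MC903 ears, a log2FC of 2.33 (adjusted p = 8.13e-11). Haptoglobin, Hp, had log2FC values of 2.61 against vehicle and -0.03 against MC903 (adjusted p = 1.78e-10 and 0.908). Saa1, serum amyloid A, was highest in mouse 3, at 8.76, 10.6, 40.4 and 14.3 CPM against 0.0331 to 0.326 CPM (median 0.110) in vehicle, and its log2FC went from 7.32 to 6.61 without mouse 3. Of 14 monocyte and macrophage markers, 7 were higher and 2 lower with all mice (26.4% and 29.4% of all genes), and 4 and 2 without mouse 3 (23.6% and 26.5% of all genes). Fcgr1, the high-affinity IgG receptor, and Ly6c2, a marker of fresh monocytes, were higher by log2FC values of 2.32 and 1.94 with all mice, and Ly6c2 did not pass without mouse 3 (0.71, adjusted p = 0.12). The macrophage growth factor receptor Csf1r and the fractalkine receptor Cx3cr1 were lower, by log2FC values of -0.50 and -1.47 (adjusted p = 0.000123 and 0.00158).

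Of 19 matrix proteases and inhibitors 9 were higher and 9 lower (26.4% and 29.4% of all genes), and 5 and 9 without mouse 3 (23.6% and 26.5% of all genes). Adamts1, a protease of proteoglycans, was at 44.6, 50.4, 64.8 and 50.9 CPM against 107 to 144 CPM (median 124) in vehicle (log2FC -1.26, adjusted p = 3.03e-09), and the inhibitor Timp2 was lower by a log2FC of -0.92. Of 6 melanocyte markers 3 were lower and 1 higher with all mice (29.4% and 26.4% of all genes), and 5 and 1 without mouse 3 (26.5% and 23.6%). The higher one was Mitf, the factor that governs the lineage, and its call was marginal (edgeR, adjusted p = 0.0405). The call of Mitf was lost without dexamethasone mouse 1 or 4 (0.172 and 0.107) or vehicle mouse 1, 2, 3 or 4 (0.082 to 0.128). It was also lost without a filter (0.0521) and with a mean normalized count above 25 (0.0597). Mlana, a melanosome protein, was at 1.02, 3.89, 5.54 and 3.24 CPM against 5.45 to 9.64 CPM (median 7.35) in vehicle, with a log2FC of -1.10 that became -1.41 without mouse 3 (adjusted p = 0.0023 and 0.00038). Of the 4 eosinophil markers tested 2 were lower, and 1 without mouse 3 (29.4% and 26.5% of all genes). Of the 6 B and plasma cell markers only 2 had enough reads to test, and neither passed.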
